A study of Homo sapiens with 3 samples.

Results

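The kinesin motor genes were taken from an RNA sequencing table of A2780 cells, an ovarian cancer line whose tumour of origin was undifferentiated, as every row whose gene symbol matches the KIF or KIFC naming pattern. This gave 42 genes in 57 RefSeq transcript rows, out of 18674 genes in 28848 rows. All the cells were A2780, and 3 libraries were compared. The control carried pBABE, a retroviral vector without the microRNA (1 library). Exogenous miR-181a was carried by p181a #1 and p181a #2, with 1 library each, which are named pool 1 and pool 2. All were stable lines. The labels describe the miR-181a cells both as polyclonal pools and as clones and give no separate cultures. A p-value here thus rests on how far 2 libraries lie apart, in the gene itself and in genes of like coverage. This distance may be technical. The promoter that drives the microRNA is not given in the sources used here, and its level was not analysed here. Of 11 epithelial and ovarian markers checked, 8 were listed at 0 in both pools, as were 6038 of the 18674 genes. Among these 8 were EPCAM, KRT19, PAX8 and ESR1, at 66.3, 17.4, 4.71 and 103.8 with the vector. CDH1, KRT7 and WT1, also among them, were at 0 in all 3 libraries. KRT8 was at 27.0 with the vector, 13.4 in pool 1 and 10.5 in pool 2. In the same order KRT18 was at 13.9, 2.38 and 4.91, and MSLN at 12.4, 0.14 and 0. The summed coverage of the 11 markers was 246 in the vector library and 15.9 and 15.4 in the pools.

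Kinesins are motor proteins that turn ATP hydrolysis into movement or force on microtubules. Mitotic kinesins build the spindle, move chromosomes and complete cytokinesis, and their transcripts accumulate late in the cell cycle. Transport kinesins carry organelles, vesicles and protein complexes along microtubules in cells that are not dividing as well, and several of them work mainly in neurons. The 42 genes were sorted by role into 14 mitotic kinesins, 15 transport kinesins and 13 others, which act in cilia, depolymerise microtubules, regulate microtubule growth or have less defined roles. The question of the series is which genes miR-181a acts on. Here it was asked how the motors of division and of transport differed between the vector library and the pools.

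Each value is a coverage, the median read density over windows of a transcript, so levels can be compared between genes per length. Folds are differences of log2(coverage + 1) between a pool and the vector library, which understates changes of genes of low coverage. At a limma adjusted p of 0.05, no kinesin rose and 8 of the 33 tested fell (24.2%). Of these 8, KIF2B, KIF5C, KIF17, KIFC3 and KIF21B had a pool mean under the filter of 2.44. They were tested only through their vector value. The filter thus fixed the direction of those 5 calls, which are given as a description. At an unadjusted p of 0.05 the counts were 4 higher, namely KIF15, KIF20A, KIF2C and KIFC1, and 10 lower. The share of all genes at this unadjusted p was not taken, so such counts, here and below, are a description only. At the adjusted p, 1.00% of all 12552 genes tested rose and 21.7% fell, so the share of kinesins that fell was near that of all genes. At least 1 log2 unit higher in both pools were 3 of 33 kinesins (9.09%, against 2.53% of all genes), and at least 1 log2 unit lower were 9 of 33 (27.3%, against 27.3%). The vector library stands apart from the pools. Of the 8822 transcripts listed at 0 in both pools, 62.9% were above 0 with the vector, and whether this bears on the kinesins that fell was not tested. No counts are given with the coverage, so the depth of the libraries is unknown.

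**Figure D1:**
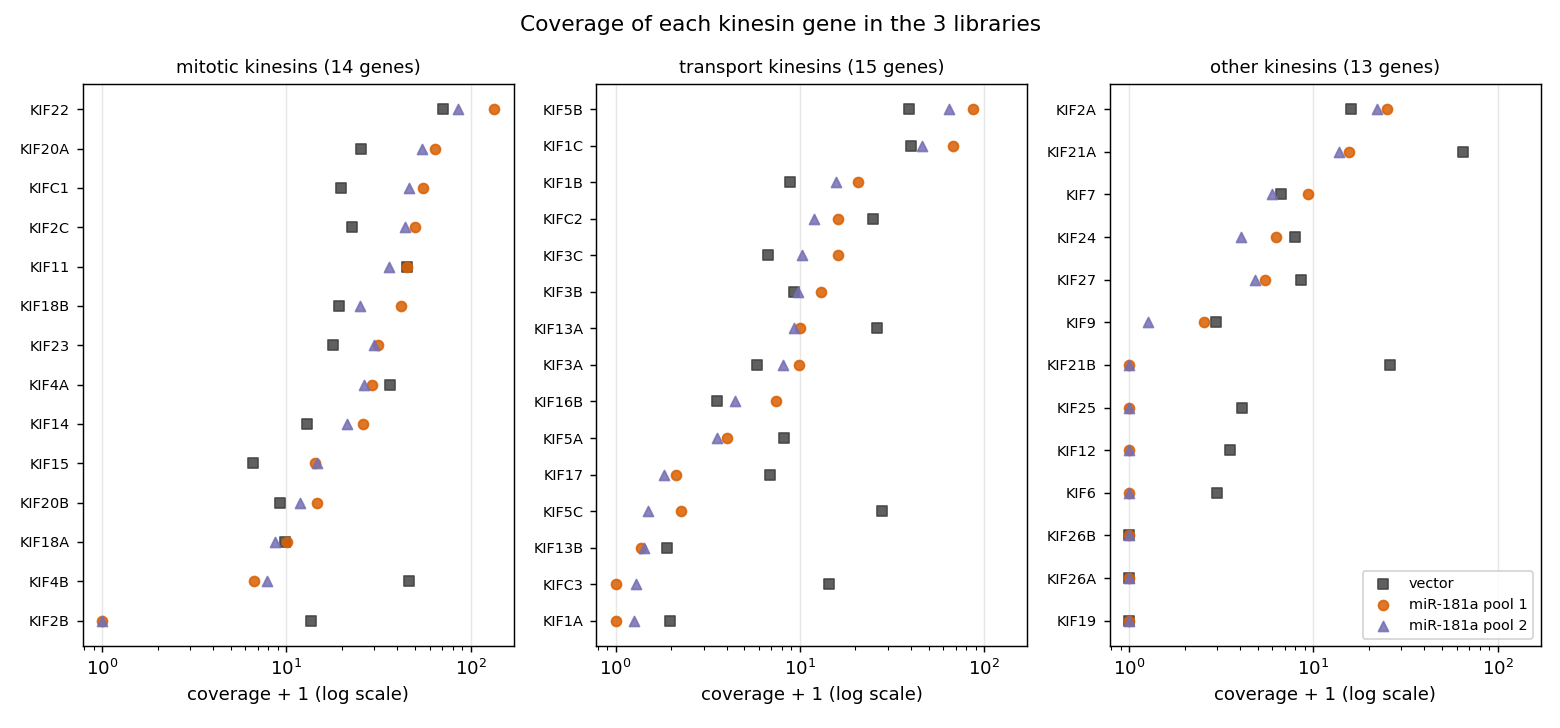
Coverage of each kinesin gene in each library (coverage + 1, log axis), with genes ordered by their mean over the pools within mitotic, transport and other kinesins. Squares are the vector library, circles pool 1 and triangles pool 2. KIF22 had the highest pool coverage, and KIF4B, KIF5C, KIFC3 and KIF21B show a vector value far to the right of both pools.

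Mitotic kinesins stood higher in the pools more often than not, and none of them passed the test upward. Of 14 tested, 9 were higher in both pools (64.3%, against 44.6% of all genes tested), 4 were lower in both (28.6%, against 41.8%) and KIF18A was divided. Their median log2 fold was 0.67, with 0.86 in pool 1 and 0.37 in pool 2, beside 0.07, 0.24 and -0.12 over all genes tested. Setting the library medians equal moved the median of all genes to 0.49 and left 11 mitotic kinesins higher in both pools (60.9% of all genes), and scaling the pools by genes above 50 moved it to -0.31 and left 9 (28.7% of all genes). Of the 9 that were higher, KIFC1, KIF20A and KIF15 were past 1 log2 unit in both pools.

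KIFC1, a minus-end-directed motor that focuses spindle poles and clusters extra centrosomes, had a coverage of 18.7 with the vector, 54.3 in pool 1 and 45.1 in pool 2. Both pools were above the vector library, and the log2 fold was 1.36 (SE 0.25, adjusted p = 0.092 by limma), the highest of all kinesins. KIF20A, which brings the chromosomal passenger complex to the central spindle before cytokinesis, was at 24.4, 63.0 and 53.2 in the same order. Its pools were likewise both above the vector library, by 1.21 on the log2 scale (SE 0.23, limma adjusted p = 0.099). KIF15, which helps KIF11 to keep the spindle bipolar, was at 5.56, 13.3 and 13.6. The pools lay close together and above the vector library, by 1.14 on the log2 scale (SE 0.26, limma adjusted p = 0.127). KIF15 passed the test in 6 of 9 processing alternatives, and KIFC1 and KIF20A in 3. Each of these genes passed with library medians set equal, where 6355 of 12552 genes rose. They also passed with the pools scaled by genes above 50, where 1039 rose, and with a filter at the median, where 402 of 8368 rose.

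A second set of mitotic kinesins was higher in both pools by less. KIF2C, a microtubule depolymerase of the centromere, was at 21.7 with the vector, 48.9 in pool 1 and 43.2 in pool 2, which is 1.04 higher on the log2 scale (SE 0.22, limma adjusted p = 0.114). KIF14, which acts with citron kinase in cytokinesis, was at 11.9, 25.1 and 20.5. KIF23, the motor of the centralspindlin complex, was at 16.9, 30.3 and 28.8, and its other transcript at 15.9, 29.8 and 26.8. In these 3 genes the pools were nearer to each other than to the vector library. KIF18B, which shortens astral microtubules, was at 18.3, 40.7 and 24.0, and KIF22, a chromokinesin that pushes chromosome arms away from the poles, was at 69.8, 133 and 84.7. In both of these genes pool 2 lay nearer to the vector library than to pool 1. KIF20B, a motor of cytokinesis, was at 8.19, 13.6 and 10.8.

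KIF11, KIF4A and KIF18A were not higher in both pools, and their folds depended on the scaling. With the library medians set equal all 3 turned positive, and with the pools scaled by genes above 50 KIF11 (-0.54, limma adjusted p = 0.012) and KIF4A (-0.78, limma adjusted p = 0.00029) passed the test downward. KIF11, which slides antiparallel microtubules to separate the poles and is the target of antimitotic inhibitors, was at 44.3 with the vector, 44.3 in pool 1 and 35.3 in pool 2. KIF4A, a chromokinesin that works with PRC1 at the anaphase midzone, was at 35.7, 28.3 and 25.3. KIF18A, which damps chromosome oscillations at the metaphase plate, was at 8.84, 9.14 and 7.70. The log2 folds were -0.16 (SE 0.26) for KIF11, -0.40 (SE 0.22) for KIF4A and -0.07 (SE 0.26) for KIF18A, and none passed the test. With the vector, KIF22 and KIF4B alone lay above KIF11 among mitotic kinesins, while by pool mean KIF22, KIF20A, KIFC1 and KIF2C did.

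KIF4B and KIF2B fell. KIF4B is an intronless copy of KIF4A, with 1 exon against 31, on chromosome 5 (154393315 to 154397701 on GRCh37), while KIF4A lies on the X chromosome (69509954 to 69640736). KIF4B was at 45.5 with the vector, 5.71 in pool 1 and 6.87 in pool 2. The vector value exceeded that of KIF4A itself, while in the pools KIF4B lay below KIF4A, and its log2 fold was -2.68 (SE 0.30, limma adjusted p = 0.042). The coding sequences are 95.7% identical, with a longest identical run of 151 bases, and 2.3% of 100-base windows are identical in both. How reads that fit both copies were assigned is not given in the sources used here, so the level of KIF4B is uncertain. KIF2B, a depolymerase of the kinetochore whose gene is used mainly in testis, was at 12.6 with the vector and listed at 0 in both pools. Among transcripts listed at 0 in both pools, 13.0% had a vector value as high as that of KIF2B or higher.

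**Figure D2:**
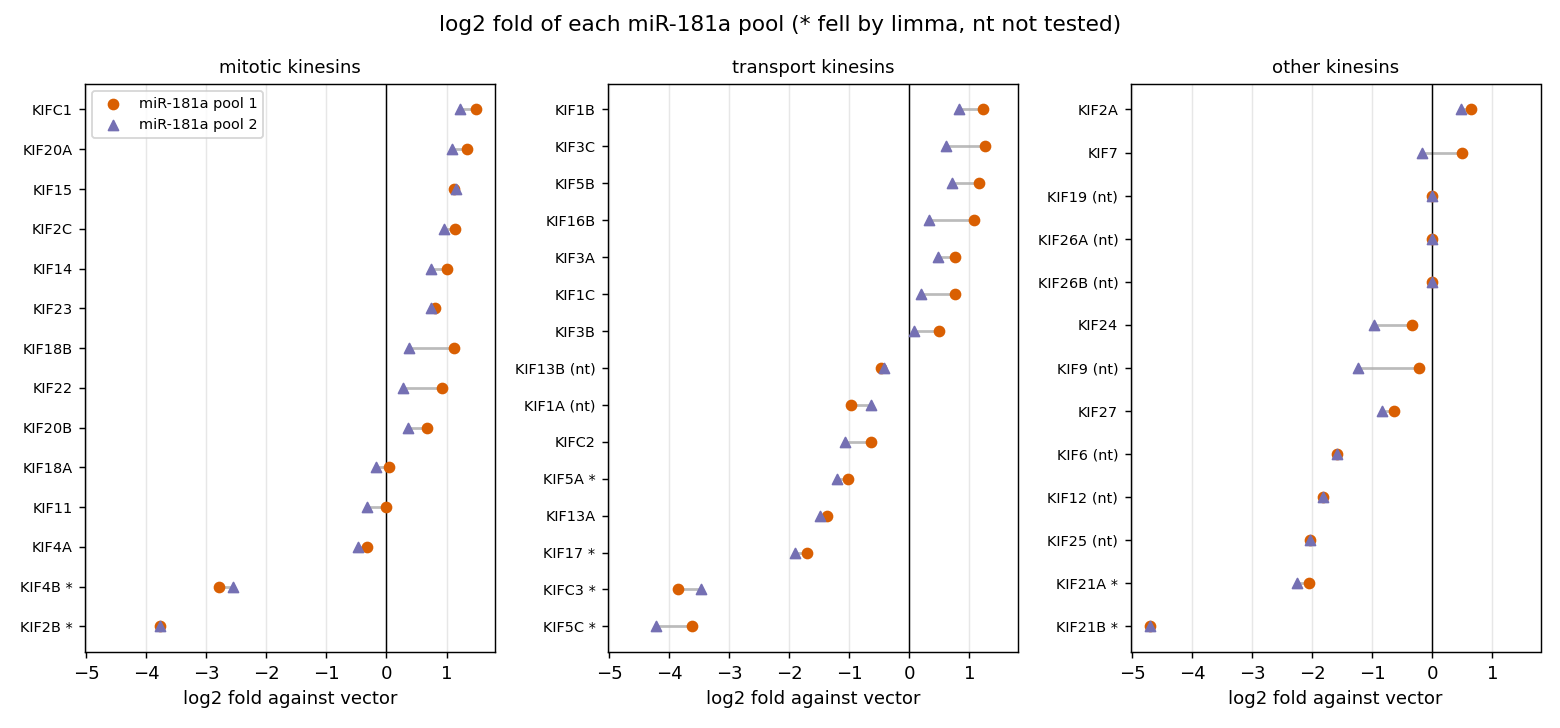
log2 fold of pool 1 (circles) and pool 2 (triangles) against the vector library for each kinesin, ordered by the mean fold within mitotic, transport and other kinesins. An asterisk marks the 8 genes that fell by limma and nt the genes not tested, and 9 of 14 mitotic kinesins lie right of 0 in both pools.

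The promoter windows of the mitotic kinesins share short elements that the choice of genes did not use. The CHR, a cell cycle element bound by the DREAM and MYBL2-MuvB complexes, was searched as TTTGAA or TTTAAA, and the box bound by NF-Y as CCAAT, both on either strand, in RefSeq windows from 250 bases before to 50 after each annotated start (GRCh38.p14). A CHR and an NF-Y box can share at most 1 end base, and each was counted on its own. A match is a description of the letters only. The windows of KIFC1, KIF20A and KIF15, the 3 kinesins past 1 log2 unit in both pools, and of KIF5B, the transport kinesin of highest pool coverage, are printed with all matches in capitals.
KIFC1: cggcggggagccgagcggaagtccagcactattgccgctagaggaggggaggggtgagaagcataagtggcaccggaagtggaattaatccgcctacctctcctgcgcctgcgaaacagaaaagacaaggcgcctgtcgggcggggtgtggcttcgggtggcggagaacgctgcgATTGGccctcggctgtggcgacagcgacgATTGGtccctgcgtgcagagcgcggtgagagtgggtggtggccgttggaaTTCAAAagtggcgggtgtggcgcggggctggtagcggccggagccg
KIF20A: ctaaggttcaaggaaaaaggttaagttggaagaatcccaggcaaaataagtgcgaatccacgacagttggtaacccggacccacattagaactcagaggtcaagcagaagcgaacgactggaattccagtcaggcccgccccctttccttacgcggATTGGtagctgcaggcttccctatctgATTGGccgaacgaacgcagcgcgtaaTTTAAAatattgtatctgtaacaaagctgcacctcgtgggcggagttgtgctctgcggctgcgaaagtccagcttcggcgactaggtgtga
KIF15: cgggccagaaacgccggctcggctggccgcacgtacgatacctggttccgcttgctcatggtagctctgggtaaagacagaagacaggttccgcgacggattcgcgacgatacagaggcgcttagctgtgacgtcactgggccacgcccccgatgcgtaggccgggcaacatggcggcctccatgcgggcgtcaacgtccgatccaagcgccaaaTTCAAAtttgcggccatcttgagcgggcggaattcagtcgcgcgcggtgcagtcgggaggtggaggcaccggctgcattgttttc
KIF5B: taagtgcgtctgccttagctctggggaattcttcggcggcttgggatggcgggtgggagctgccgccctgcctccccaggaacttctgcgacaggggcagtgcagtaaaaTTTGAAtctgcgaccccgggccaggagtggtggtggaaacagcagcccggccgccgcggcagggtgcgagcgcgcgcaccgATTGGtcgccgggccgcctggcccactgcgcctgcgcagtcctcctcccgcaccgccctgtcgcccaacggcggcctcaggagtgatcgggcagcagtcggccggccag
These windows are chr6:33391573-33391872, chr5:138178862-138179161 and chr3:44761544-44761843 on the plus strand and chr10:32056376-32056675 on the minus strand. In KIFC1 the CHR begins at position 5 after the start and the NF-Y boxes at -75 and -46. In KIF20A the CHR begins at -41 and the NF-Y boxes at -94 and -67. KIF15 has a CHR at -35 and no CCAAT in its window. In KIF5B the CHR match lies farther away, at -140, with an NF-Y box at -59.

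A CHR match was found in 12 of 14 mitotic kinesins, in 2 of the 11 transport kinesins with a window and in none of 9 others with a window. Per window these were 80.0%, 12.5% and 0%, beside 18.0% of the 13206 windows of tested genes. TTTGAA alone was in 66.7% of mitotic windows and 11.0% of those of tested genes, and TTTAAA in 26.7% and 8.9%. The NF-Y box was in 73.3% of mitotic windows, 31.2% of transport windows and 35.0% of those of tested genes. Both elements were present in 10 of 14 mitotic kinesins, in KIF5B among transport kinesins and in 7.1% of windows of tested genes. KIF11, KIF4A and KIF18A, which were not higher in both pools, hold both elements, as does KIF4B, while KIF22, which was higher, has no CHR match in either of its windows. Matches were thus found both in mitotic kinesins that were higher in the pools and in those that were not. No window was found in the table for KIF5A, KIF13B, KIF19, KIF21B, KIF26B, KIF27, KIFC2 and KIFC3.

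**Figure D3:**
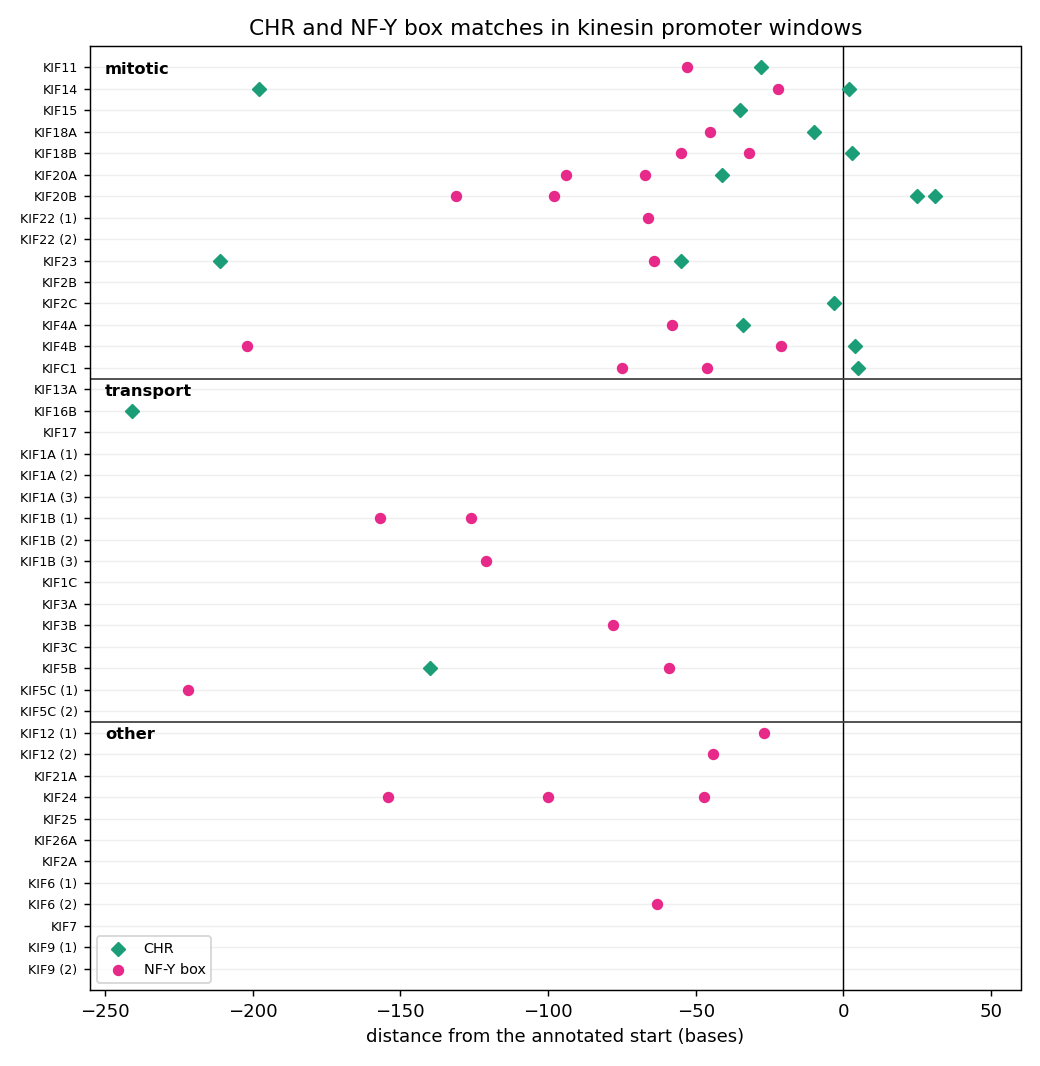
Matches of the CHR (diamonds) and of the NF-Y box (circles) in the RefSeq promoter windows of kinesins, by distance from the annotated start in bases. Numbers in brackets tell apart several windows of a gene, and 12 of 14 mitotic kinesins have a CHR match against 2 of 11 transport kinesins.

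Genes that work with mitotic kinesins or mark cycling cells were measured beside them. All 8 markers of cycling cells were higher in both pools, against 44.6% of all genes tested. Their summed coverage was 424 with the vector, 840 in pool 1 and 692 in pool 2. The proliferation marker MKI67 was at 11.9, 34.4 and 27.9, and CDK1, the kinase that drives entry into mitosis, at 67.6, 162 and 133. By limma none of the 8 passed the test (4 at an unadjusted p of 0.05), and their part in the levels of the mitotic kinesins was not tested. In bulk RNA, more dividing cells and more transcript per cell cannot be told apart. Of 16 partners of mitotic kinesins, 11 were higher in both pools (68.8%) and 3 lower (18.8%), beside 44.6% and 41.8% of all genes. None of the partners passed the limma test, with PRC1 alone at an unadjusted p of 0.05, and their median log2 fold was 0.44. CENPE, the kinetochore kinesin whose symbol falls outside the naming pattern, was at 10.8, 20.1 and 19.4, and PRC1, which bundles midzone microtubules, was at 52.9, 117 and 94.5. AURKA, a kinase of spindle poles, was at 25.3, 52.0 and 42.1. AURKB, a kinase of the chromosomal passenger complex, ran the other way, at 117, 75.2 and 48.0. Among 13 regulators of late cell cycle genes, LIN52, a subunit of the MuvB complex, was at 1.43, 4.20 and 4.02 (log2 fold 1.07). It was the only regulator past the test. It reached the filter only through its pool values, so this call too is a description only. The other listed subunits of the same complex were divided, and none of them passed the test. LIN54, at 20.1, 6.16 and 5.94, and LIN9, at 25.5, 12.2 and 8.13, were lower in both pools. RBBP4, at 61.9, 113 and 97.2, and LIN37, at 4.6, 5.5 and 4.9, were higher in both. Of the 13 regulators, 7 were higher in both pools and 3 lower, beside 44.6% and 41.8% of all genes tested.

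Transport kinesins divided into a set that was higher in both pools and a set that was lower. Of 13 tested, 7 were higher in both pools (53.8%), 6 were lower (46.2%), none rose by limma (none at an unadjusted p of 0.05 either) and 4 fell (30.8%). Over all genes tested 44.6% were higher in both pools, 41.8% lower and 21.7% fell. Of the 4 transport kinesins that fell, KIF5C, KIF17 and KIFC3 were tested only through their vector value. The direction of their calls was fixed by the filter, so the share of 30.8% is a description only. With the pools scaled by genes above 50, 5 were higher in both pools, and KIF3B turned negative. KIF1A and KIF13B were under the filter, at 0.96 and 0.90 in the vector library and at most 0.42 in a pool. The median log2 fold of the 13 was 0.28, with 0.50 in pool 1 and 0.07 in pool 2, and it was -0.45 over all 15. Under that scaling the median of the 13 turned to -0.10.

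The heavy chains of conventional kinesin, which carry organelles with the help of light chains, went separate ways. KIF5B, the heavy chain made in most cells, was at 38.3 with the vector, 86.6 in pool 1 and 63.3 in pool 2. Both pools were above the vector library (log2 fold 0.93, SE 0.31, limma adjusted p = 0.205). KIF5A and KIF5C, which work mainly in neurons, fell. KIF5A was at 7.18, 3.02 and 2.53 (log2 fold -1.12, SE 0.12, limma adjusted p = 0.037). KIF5C was at 27.0, 1.28 and 0.50 (log2 fold -3.92), and the filter fixed the direction of its call. KIF5C thus stood below KIF5B but above KIF5A with the vector, and below both in the pools. KIF5C passed the test in 7 of 9 alternatives and KIF5A in 4. Among transcripts with a pool mean above 0 and up to 1, 9.75% had a fold as low as that of KIF5C, and 22.7% of those above 1 and up to 10 had one as low as that of KIF5A.

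In 6 further transport kinesins both pools lay above the vector library. KIF1C, a motor for secretory vesicles and integrin, was at 38.9, 66.6 and 44.9. KIF1B, which carries mitochondria and synaptic vesicle precursors, was at 7.90, 19.7 and 14.7 in transcript NM_183416 and at 5.65, 7.86 and 6.89 in NM_015074. The subunits of the heterotrimeric ciliary and vesicle motor, KIF3A and KIF3B, were at 4.82, 8.86 and 7.14 and at 8.26, 12.1 and 8.72. KIF3C, which also pairs with KIF3A, was at 5.72, 15.0 and 9.29, and KIF16B, a motor of early endosomes, at 2.53, 6.41 and 3.43. In KIF1C, KIF3B, KIF3C and KIF16B pool 2 lay nearer to the vector library than to pool 1. No member of this set passed the test. KIF3C passed it upward in 3 of 9 processing alternatives, the same 3 as KIFC1 and KIF20A. KIF1B and KIF5B did so in 2, as did KIF2C and KIF14 among mitotic kinesins. For KIF1C, KIF3A, KIF3B and KIF16B it was 1 each.

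KIF17 and KIFC3 fell, and KIFC2 and KIF13A were lower without passing the test. KIF17, a dendritic and ciliary motor, was at 5.86, 1.12 and 0.84 (log2 fold -1.80), and 37.4% of transcripts with a pool mean above 0 and up to 1 had a fold as low. KIFC3, a minus-end motor of cell junctions and the Golgi, was at 13.4 with the vector, 0 in pool 1 and 0.29 in pool 2 (log2 fold -3.66). The direction of both calls was fixed by the filter. Its other transcripts had vector values of 0.38 and 0.33, so the call rested on NM_005550 alone, and it was made in 4 of 9 alternatives. KIFC2, a minus-end motor known from neurons, was at 24.0, 15.2 and 10.9. KIF13A, a motor of recycling endosomes, was at 25.1, 9.04 and 8.26 in the transcript used, NM_001105567. Its 3 other transcripts were higher in both pools, with vector values of 4.46, 4.54 and 4.98 and pool means of 8.39, 9.06 and 8.13, and with the transcript picked by pool values alone the fold of KIF13A turned to 0.85. KIF13A was called as fallen in 6 of 9 alternatives.

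**Figure D4:**
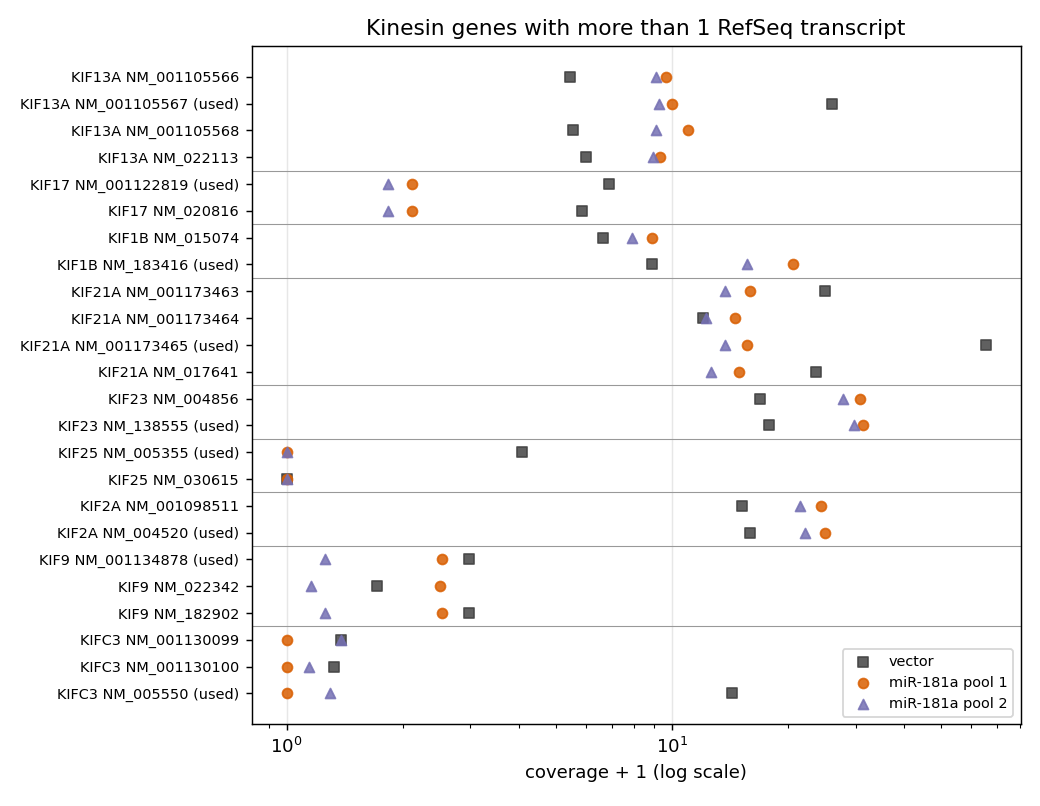
Coverage (coverage + 1, log axis) of every RefSeq transcript of the 9 kinesin genes with more than 1, with the transcript of highest mean, which was tested, marked as used. Squares are the vector library, circles pool 1 and triangles pool 2, and in KIF13A, KIF21A and KIFC3 the transcripts span a wider range with the vector than in the pools.

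Of the 13 other kinesins, 6 were tested and 2 of these fell (33.3%, against 21.7% of all genes). Only KIF2A was higher in both pools (16.7%, against 44.6%). KIF2A, a depolymerase of spindle poles and of neurites, was at 15.0 with the vector, 24.0 in pool 1 and 21.2 in pool 2, and its other transcript gave 14.3, 23.5 and 20.5. KIF21A, a regulator of microtubule growth, fell in the transcript used, NM_001173465, from 64.3 to 14.7 and 12.7 (log2 fold -2.15, SE 0.25, limma adjusted p = 0.045). Its 3 other transcripts had vector values of 24.0, 22.6 and 11.0 and pool means of 13.8, 12.8 and 12.4, and the last of these was not lower in the pools. The call was lost with the mean of transcripts or with the transcript picked by pool values alone. Of transcripts with a pool mean above 10 and up to 50, 1.93% had a fold as low as that of NM_001173465. KIF21B, its neuronal and lymphoid relative, was at 25.1 with the vector and listed at 0 in both pools. As for KIF2B, the filter fixed the direction of its call.

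KIF7, a ciliary regulator of Hedgehog signalling, was at 5.68, 8.39 and 4.96, with the pools on either side of the vector library, and its fold turned negative with the pools scaled by genes above 50. KIF24, a centriolar kinesin, was at 6.91, 5.30 and 3.03, and KIF27, a relative of KIF7, at 7.55, 4.47 and 3.80. Both were lower in the pools without passing the test. KIF6, KIF12 and KIF25 were listed at 0 in both pools with vector values of 2.00, 2.53 and 3.09, KIF9 was at 1.97, 1.54 and 0.26, and none of the 4 reached the filter. KIF19, KIF26A and KIF26B were listed at 0 in all 3 libraries. Of 12 neural markers checked beside the neuronal kinesins, 11 were in the table, 7 were listed at 0 in both pools, and their summed coverage was 96.1 in the vector library and 40.1 and 32.8 in the pools. STMN2 and NEFL were at 0 in all 3, and MAPT and NEFM, at 18.9 and 7.41 with the vector, were at 0 in both pools. MAP2 was at 53.6, 26.1 and 18.3. SYP, at 3.19, 8.32 and 5.90, and TUBB3, at 2.05, 2.57 and 3.88, were higher in both pools, so that 2 of the 6 tested were higher and 4 lower. The direction of the calls of MAPT and NEFM was fixed by the filter. The part of these markers in the fall of KIF5A, KIF5C, KIF17 and KIF21B was not tested. Of 16 tested genes of cilia, 10 were higher in both pools, 5 lower, and FOXJ1, IFT122 and TEKT1 passed the test downward, FOXJ1 and TEKT1 only through vector values of 13.9 and 14.8. Among all genes tested, 44.6% were higher in both pools, 41.8% were lower and 21.7% fell. The summed coverage of all 18 was 547, 216 and 166, of which IFT122 held 356, 11.5 and 10.3, and their part in the levels of the ciliary kinesins was not tested.

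Cargo adaptors and dynein gave the setting for the transport kinesins. Of 16 tested adaptors of transport kinesins, 8 were higher in both pools, 5 were lower and RHOT1 alone fell (6.25%, against 21.7% of all genes). The shares were 50.0% higher and 31.2% lower, against 44.6% and 41.8% of all genes. RHOT1, the mitochondrial GTPase that links kinesin to mitochondria, was at 124 with the vector and 11.0 in each pool (log2 fold -3.38, SE 0.22, limma adjusted p = 0.015). MAPK8IP2, a scaffold carried by conventional kinesin, was at 29.1, 6.96 and 4.11, and MADD, an adaptor of KIF1 motors, at 42.2, 20.3 and 15.7. TRAK2, the adaptor between RHOT proteins and kinesin, was at 3.57, 9.04 and 9.23, past 1 log2 unit upward in both pools, and is named after its values were seen. KIFAP3, the accessory subunit of KIF3A and KIF3B, was at 22.8, 8.84 and 7.97 and so was lower where its motors were higher, without passing the test. Of 20 tested subunits and regulators of cytoplasmic dynein, the minus-end motor, 13 were higher in both pools (65%) and 5 lower (25%). Among all genes these shares were 44.6% and 41.8%. DYNC1I1, at 13.4 with the vector and 0 in both pools, was the only call (5%, against 21.7% of all genes). The filter fixed the direction of that call. DCTN1, the largest dynactin subunit, was at 227, 73.6 and 54.2 and did not pass.

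Mitotic and transport kinesins were then set side by side. The median log2 fold of tested mitotic kinesins exceeded that of transport kinesins by 0.39, and by 0.37 in pool 1 and 0.30 in pool 2. Summed over all members, mitotic coverage was 342 with the vector, 510 in pool 1 and 399 in pool 2, and transport coverage was 211, 245 and 175. Mitotic kinesins were also more highly covered. A pool mean above 10 was found in 11 of 14 mitotic and 6 of 15 transport kinesins, and under 1 in 1 and 5. The classes were therefore also set beside each other within bands of the pool mean, a step chosen after seeing the data. The pool mean enters the fold, so folds rise from band to band in part by construction, and values are read only within a band. From 10 to 50, the median was 0.77 in 9 mitotic kinesins, 0.61 in 4 transport kinesins and 0.30 in 5099 genes, and 7 of 9, 3 of 4 and 56.8% were higher in both pools. From 50 to 150 it was 0.91 in KIF22 and KIF20A, 0.71 in KIF5B and KIF1C and 0.46 in 1559 genes, of which 75.8% were higher in both pools. From 1 to 10 it was -1.37 in 2 mitotic kinesins, KIF4B and KIF18A, -0.25 in 4 transport kinesins and -0.36 in 3273 genes. With the transcript of each gene chosen without the vector value, the difference between the classes shrank to 0.12. The classes share the vector library, and no test of the difference was run.

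**Figure D5:**
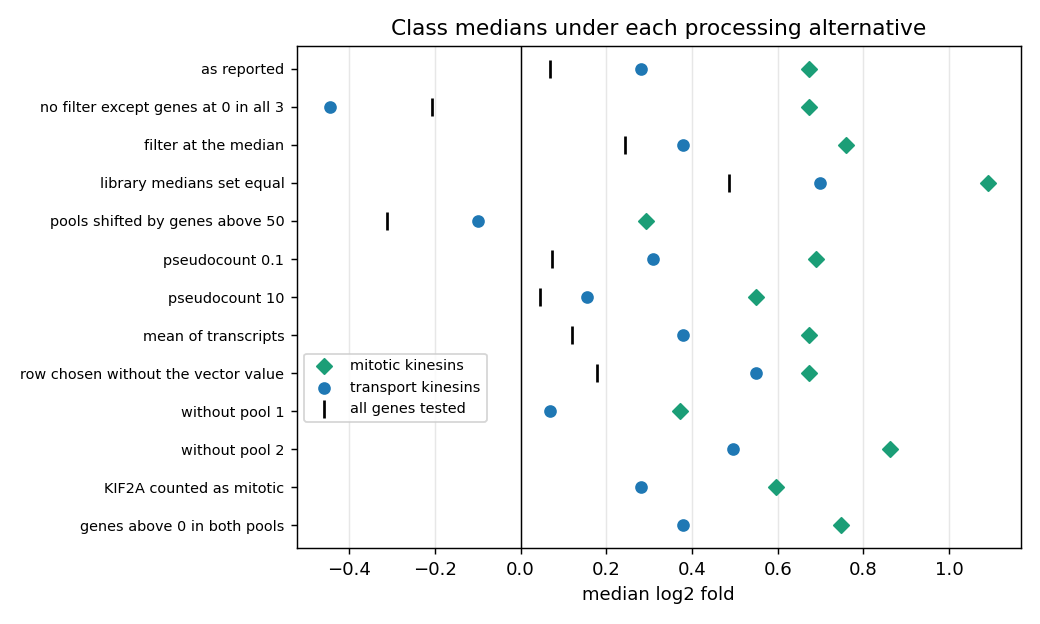
Median log2 fold of tested mitotic kinesins (diamonds), transport kinesins (circles) and all genes tested (bars, where recomputed) under each processing alternative, with the value as reported on top. The mitotic median lies right of the transport median in every setting shown, by 0.12 to 1.12. The transport median lies left of 0 in 2 of them. Library medians set equal and pools shifted by genes above 50 move both classes alike, so the difference of 0.39 could not change there.

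The pools differed from each other in scale. Pool 1 exceeded pool 2 in 28 of 33 tested kinesins (84.8%) and in 77.2% of all tested genes, and the median log2 difference of pool 2 from pool 1 was -0.26 in kinesins and -0.27 in all tested genes. KIF15, KIF4B and KIFC3 were higher in pool 2, and KIF2B and KIF21B were at 0 in both.

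Since the series concerns targets of miR-181a, the 3 prime UTRs of the kinesins were searched for matches to its seed, bases 2 to 8, shown in capitals in the mature sequence from RefSeq.
hsa-miR-181a-5p: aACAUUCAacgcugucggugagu
The DNA match of this seed is TGAATGT. Of the 12345 tested genes with a 3 prime UTR, 20.7% held it at least once. It was found in 1 of 14 mitotic kinesins (7.1%), 3 of 15 transport kinesins (20.0%) and 1 of 13 others (7.7%). The median 3 prime UTR was 584.5 bases long in mitotic kinesins, 2522 in transport kinesins and 1228 in the tested genes. The matches of the tested members are printed with the 7 matching bases in capitals, since they bear on which kinesins the microRNA could bind directly.
KIF3A, site A: tgcgctgttatataTGAATGTttggactg
KIF3A, site B: gatgactgatcttaTGAATGTtttgtaga
KIF3A, site C: tgtaattggaatacTGAATGTcctgtgtg
KIF3B, site A: gtgcctgtgttctgTGAATGTgtccatat
KIF3B, site B: aagtcctccctcacTGAATGTagaatcgt
KIF5A: aatagggaggagggTGAATGTttcttctt
KIF2C: tttgggccgagcacTGAATGTcttgtact
These sites lie in the 3 prime UTR on GRCh37, the same assembly as hg19. In KIF3A they are chr5:132031888-132031894, chr5:132031770-132031776 and chr5:132030586-132030592 on the minus strand. In KIF3B they are chr20:30920505-30920511 and chr20:30922259-30922265 on the plus strand, and the second is followed by an A, which makes it a match of 8 bases in the usual sense. That of KIF5A is chr12:57978263-57978269 and that of KIF2C chr1:45233279-45233285, both on the plus strand. KIF3A with 3 sites and KIF3B with 2 were higher in both pools by 0.62 (SE 0.23) and 0.28 (SE 0.35) on the log2 scale, as was KIF2C by 1.04. KIF5A was the only tested kinesin with such a site that fell. KIF6, the remaining kinesin with a match, was under the filter. The other 7 kinesins that fell had no match of this kind. A weaker match, bases 2 to 7 followed by an A, was found among tested kinesins in KIF5C, which fell, and in KIF1C, KIF3B and KIF27, which did not pass the test, and also in KIF13B, which was not tested.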

How the data were processed

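Messenger RNA of A2780 cells was measured in 3 libraries, selected by oligo(dT) and sequenced in reads of 100 bases (labels' protocols). Reads were mapped to hg19 by the authors, who deposited, for each RefSeq transcript, a coverage signal that is the median read density over sliding windows of 50 bp, per the labels' protocols. A log transformation and quantile normalization are named there, but the deposited coverage is linear and its totals differ between libraries (798228, 907092 and 719263), so no common scaling was assumed. The aligner is not given in the sources used here. Depth is unknown, which leaves no counting error to state.

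Of 29156 rows, 308 with a blank vector value, none of a kinesin, were left out, and 54 symbols turned into dates were restored by accession. The transcript of highest mean over the libraries stood for each gene. Genes with a mean coverage above 2.44, the lowest 25% of those not at 0 throughout, were tested on log2(coverage + 1) with limma 3.58.1 in R 4.3.3 (eBayes with a variance trend, Benjamini-Hochberg over 12552 genes, 0.05), the pools against the vector library. The fit has 1 residual degree of freedom. It has 1.22 prior degrees of freedom, by which the spread of a gene is drawn towards that of genes of like coverage. The lone vector library was taken to have the spread of the pools. Every kinesin is named, and of other lists members past the test and up to 4 with the largest folds shared by both pools. The members and lists were chosen with earlier results of these data known. Promoters and the mature microRNA are from RefSeq (GRCh38.p14), gene spans and 3 prime UTRs (1 transcript per gene) from GENCODE on GRCh37. Alternatives covered the filter, scaling, pseudocount, transcript, variance model, each pool left out, the class of KIF2A and the size threshold.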

Additional observations from a re-analysis of the deposited data

How the results depend on the processing

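No paired analysis was possible because the vector group has 1 library and no number shared with the pools. With each pool left out in turn there are no residual degrees of freedom, so those are values with no test: 3 to 10 kinesins at least 1 log2 unit higher, 9 to 10 lower, a mitotic median of 0.37 to 0.86, a transport median of 0.07 to 0.50 and a difference of 0.30 to 0.37. The 10 higher came without pool 2. The count of kinesins that rose (0 by limma) was 1 with no filter, a pseudocount of 10 or no variance trend, 4 with a filter at the median, 18 with library medians set equal and 8 with the pools shifted by genes above 50 (by 0.55 and 0.21). The count that fell (8) was 4 with a filter at the median, 14 after the shift, 5 without the trend and 5 among genes above 0 in both pools, an alternative chosen after seeing the data. Medians set equal and the shift also moved the share of higher calls among all genes (6355 rose and 3701 fell, and 1039 and 5390). The 3 kinesins past 1 log2 unit upward became 10 with medians set equal, 0 after the shift, 0 with a pseudocount of 10 and 9 at a threshold of 0.5, and the 9 past it downward became 4 with a filter at the median. The mitotic median (0.67) was 1.09 with medians set equal and 0.29 after the shift. The transport median (0.28) was 0.70 with medians set equal, and it turned to -0.45 with no filter and to -0.10 after the shift. Their difference (0.39) was 1.12 with no filter, 0.29 with the mean of transcripts, 0.12 with transcripts picked by pool values alone and 0.32 with KIF2A counted as mitotic. With medians set equal the log2 folds of KIF11, KIF18A and KIF4A turned to 0.26, 0.35 and 0.013, after the shift those of KIF3B and KIF7 turned to -0.10 and -0.22, and that of KIF13A turned to 0.85 with transcripts picked by pool values alone. Among the calls, KIF4B fell in all 9 alternatives with a test, KIF2B and KIF21B in 8, KIF17, KIF5C and KIF21A in 7, and KIF5A and KIFC3 in 4. With a filter at the median, KIF2B, KIF21B, KIF17, KIF5A and KIFC3 were not tested. The filter fixed the direction of the calls of KIF2B, KIF21B, KIF17, KIF5C and KIFC3, so how often they recur is a description only. The cause of these changes was not tested.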
